A study of Mus musculus with 6 samples.

Results

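Transcripts of 87 nuclear-encoded subunits of the mitochondrial respiratory chain were followed in cells sorted from cultures of neural stem cells of the adult mouse spinal cord. They were chosen by gene name, from a table of 26264 genes: 40 subunits of complex I, 4 of complex II, 9 of complex III, 16 of complex IV and 17 of complex V, plus cytochrome c, the carrier between complexes III and IV. Complex III here includes Cyc1, and 2 entries whose names mark them as pseudogenes were left out. Ndufa4 and its relative Ndufa4l2 are counted with complex I by their names, although structural work now places Ndufa4 in complex IV. The 3 GFP-positive libraries (genotype label PDGFRaGFP/+) were the fraction of cells with green fluorescence from a Pdgfra reporter, and the 3 GFP-negative libraries (genotype label PDGFRaGFP/-) were the fraction without it. All came from cultures on a C57BL6J background, with EGF and FGF2 in the medium, and no unsorted library was analysed here. Pdgfra encodes the PDGF receptor of oligodendrocyte precursor cells, and the study asks how spinal cord stem cells produce that lineage. Whether the genotype labels describe animals or only sorted fractions is not stated, nor is it stated whether the libraries of a group came from separate animals, so p-values cover only the variation among these libraries, which may be technical.

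The respiratory chain sits in the inner mitochondrial membrane. Complexes I and II take electrons from NADH and succinate, complex III passes them to cytochrome c, complex IV hands them to oxygen, and complex V uses the proton gradient that complexes I, III and IV build to make ATP. Most subunits are encoded in the nucleus and imported, while a small core of complexes I, III, IV and V is encoded by mitochondrial DNA. Neural stem cells and astrocytes are known to lean on glycolysis, and the lineage that makes myelin is known for a high demand for energy and lipid.

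The libraries held between 31067850 and 45207335 counts. Pdgfra stood at 237, 205 and 245 CPM (counts scaled to library size, with TMM factors) in the GFP-positive libraries, against 8.04, 19.3 and 13.9 CPM in the GFP-negative ones. The 10 listed precursor markers were all higher in GFP-positive cells, where 26.1% of all tested genes were higher. They summed to 4703 to 4932 CPM against 2256 to 2569 CPM, so GFP-negative cells also held transcripts of these markers. Olig1, for example, was at 2181, 2019 and 2123 CPM against 1526, 1551 and 1386 CPM. The 10 astrocyte markers were all lower, where 29.2% of all tested genes were, with summed levels of 508 to 630 CPM against 3710 to 4554 CPM. The 5 neural stem cell markers, the labelled cell type, were present in both fractions and all lower, at 1610 to 1822 CPM summed, against 5252 to 6005 CPM. Of 6 neuronal markers, 3 were higher (36.6, 39.8 and 32.4 CPM summed, against 7.31, 13.4 and 7.74 CPM), while Slc17a6 was at 0 in every library. Mature oligodendrocyte markers summed to 205 to 226 CPM against 126 to 177 CPM, with 2 of 7 higher, microglial markers to at most 2.65 CPM with C1qa at 0 in every library, and endothelial and mural markers to at most 2.33 CPM with Cldn5 at 0. Fibroblast markers summed to 0.354, 9.32 and 1.20 CPM in GFP-positive libraries and to 2.09, 103 and 22.4 CPM in GFP-negative libraries, highest in number 2 of each group, where nearly all of it was Col3a1. The part of these markers in the results below was not tested, and in bulk libraries fewer cells of a type and less RNA per cell cannot be told apart.

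Respiratory chain transcripts were lower in GFP-positive cells across all 5 complexes. Of the 87 subunits, 82 had enough counts to be tested, and 62 of these were lower and 0 higher at an adjusted p under 0.05 (edgeR quasi-likelihood test), where 29.2% of all 14554 tested genes were lower and 26.1% higher (55.4% in either direction). The median log2 fold change of the tested subunits was -0.39, a level 0.762 times that of GFP-negative cells, and that of all tested genes was -0.006. It was -0.42, -0.33 and -0.48 in the pairs of libraries with the numbers 1, 2 and 3. Most fold changes were small: 39 of the 62 lay between 0 and -0.5, 20 between -0.5 and -1, and 3 below -1. In 65 of the 82 all GFP-positive libraries lay below all GFP-negative ones and in 0 above, where 33.0% of all tested genes lay below and 31.3% above.

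The number of calls depended on the libraries. It was 37 of 82 without the libraries of number 3, 38 without those of number 1 and 74 without the GFP-negative library of number 2, and 0 were higher in any of these. The count over all genes moved as well, with 2951 to 4468 lower over the 9 fits that left out libraries. Of the 62, 33 kept their call in all 9 fits with libraries left out. The subunits are short transcripts, with a median annotated exonic length of 977 bases against 3344 bases over all tested genes. After the trend of each library with gene length and GC content was removed, the median was -0.29, and 59 subunits were lower with the replicate block and 54 without it. The replicate block alone gave 67.

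**Figure D1:**
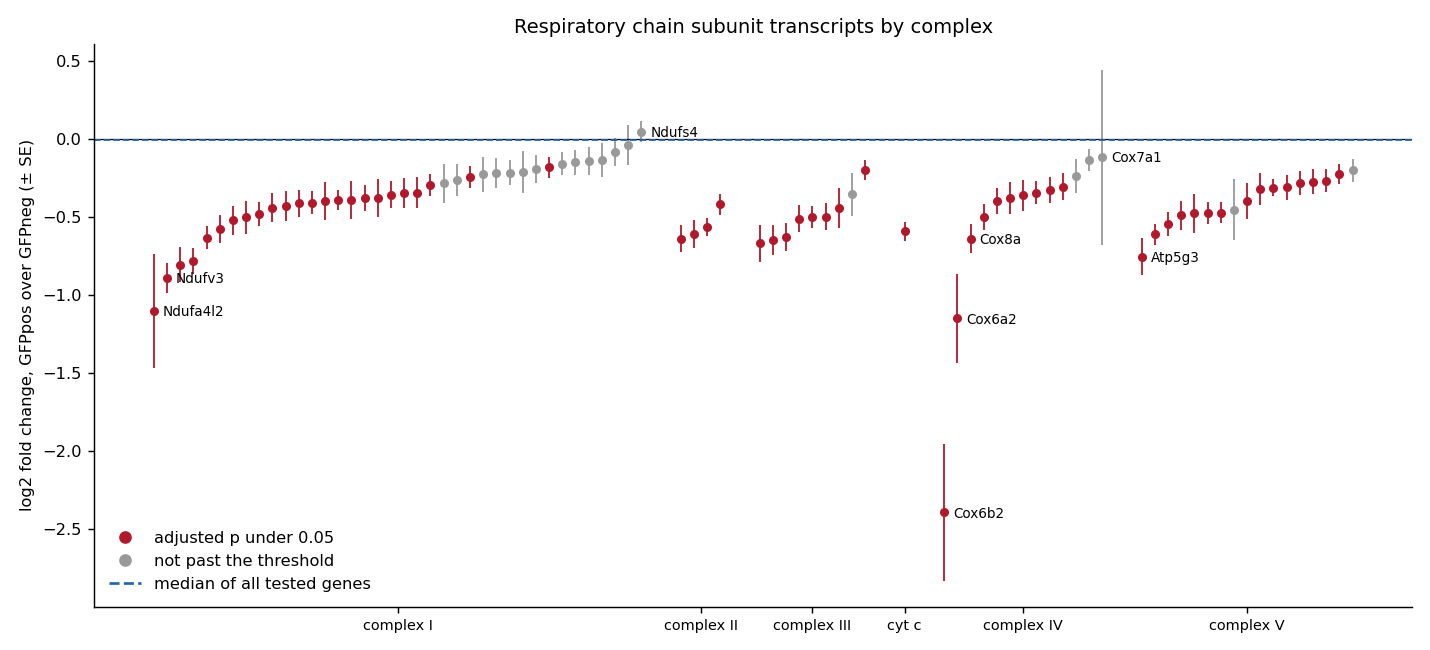
Log2 fold change of GFP-positive over GFP-negative cells (vertical axis, bars ± SE) of the 82 tested subunits, ordered within each complex; red points passed an adjusted p of 0.05 and the dashed line is the median of all tested genes. The points lie below 0 apart from Ndufs4, and Cox6b2, Cox6a2 and Ndufa4l2 lie below -1.

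Promoters of several subunits that the results turn on are shown because nuclear respiratory genes are known for sites of NRF1, of Ets factors such as GABP, and of YY1. Promoters of 70 of the 87 subunits were matched in RefSeq, from 250 bases before to 50 bases after the annotated start (build GRCm38.p6, not the build of the counts). Searched on both strands, the NRF1 motif was the near-palindrome that carries its name, the Ets motif was CCGGAAG and the YY1 motif AAGATGGC. Capitals mark matches. Shown are Sdhd at chr9:50603800-50604099 on the minus strand (complex II, the smallest p of the 62), Uqcrc1 at chr9:108936398-108936697 on the plus strand (complex III), Ndufs8 at chr19:3912725-3913024 on the minus strand (complex I core), Cox6b2 at chr7:4753045-4753344 on the minus strand (the lowest fold change) and Ndufs4 at chr13:114388045-114388344 on the minus strand (the only fold change above 0), each 5′ to 3′ along the gene.
Sdhd: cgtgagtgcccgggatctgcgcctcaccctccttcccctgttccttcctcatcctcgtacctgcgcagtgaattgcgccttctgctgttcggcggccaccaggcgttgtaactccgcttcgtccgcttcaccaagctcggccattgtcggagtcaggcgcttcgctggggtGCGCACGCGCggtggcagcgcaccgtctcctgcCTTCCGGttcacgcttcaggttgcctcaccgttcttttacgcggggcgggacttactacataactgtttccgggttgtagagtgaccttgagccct
Uqcrc1: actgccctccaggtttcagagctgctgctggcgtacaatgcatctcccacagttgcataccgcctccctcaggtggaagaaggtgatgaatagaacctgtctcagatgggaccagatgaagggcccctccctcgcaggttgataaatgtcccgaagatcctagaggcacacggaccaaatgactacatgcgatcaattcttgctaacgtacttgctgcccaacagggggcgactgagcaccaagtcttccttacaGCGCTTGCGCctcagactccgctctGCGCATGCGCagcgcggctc
Ndufs8: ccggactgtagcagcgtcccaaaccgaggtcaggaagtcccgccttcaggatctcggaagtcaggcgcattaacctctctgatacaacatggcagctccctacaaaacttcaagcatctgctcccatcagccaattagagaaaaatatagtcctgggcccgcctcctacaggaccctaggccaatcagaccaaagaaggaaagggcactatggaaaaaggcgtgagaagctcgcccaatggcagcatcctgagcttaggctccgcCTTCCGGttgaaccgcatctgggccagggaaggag
Cox6b2: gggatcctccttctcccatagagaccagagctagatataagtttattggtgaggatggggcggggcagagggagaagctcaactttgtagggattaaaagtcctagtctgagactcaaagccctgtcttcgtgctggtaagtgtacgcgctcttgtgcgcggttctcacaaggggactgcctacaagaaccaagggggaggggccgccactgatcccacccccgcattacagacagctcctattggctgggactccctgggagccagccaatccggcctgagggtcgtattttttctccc
Ndufs4: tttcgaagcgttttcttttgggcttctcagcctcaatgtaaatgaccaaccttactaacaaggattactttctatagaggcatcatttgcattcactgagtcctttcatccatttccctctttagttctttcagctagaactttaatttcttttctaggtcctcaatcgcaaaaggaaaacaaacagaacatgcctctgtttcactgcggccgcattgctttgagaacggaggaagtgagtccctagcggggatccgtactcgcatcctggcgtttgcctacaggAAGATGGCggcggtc
Sdhd held an NRF1 and an Ets match, Uqcrc1 held 2 NRF1 matches, Ndufs8 an Ets match and Ndufs4 a YY1 match, and none of the 3 motifs was in the Cox6b2 window. Of windows not shown, those of Ndufv3, Ndufc2, Cycs and Uqcrfs1 held none, while Atp5o held an NRF1 match and Cox8a 2 Ets matches. Any of the 3 motifs was in 38 of the 70 subunit promoters (54.3%), against 16.4% of all genes with a promoter.

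The NRF1 motif was in 17 of 70 subunit promoters (24.3%), against 5.19% of all 27025 genes with a promoter and 10.9% of tested genes. The Ets motif was in 17 (24.3%), against 9.93% of all and 18.7% of tested genes, and the YY1 motif in 10 (14.3%), against 3.19% and 4.95%. Fold changes were set beside the matches with no test. The median was -0.39 with the NRF1 motif (12 of 17 lower) and -0.36 without (36 of 51 lower), -0.35 and -0.38 for the Ets motif, and -0.31 and -0.39 for the YY1 motif. These matches are letters in a window and say nothing of binding.

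Complex I, which oxidises NADH, had 24 of 38 tested subunits lower, with a median of -0.35. The counts given for this and each later complex stand beside 29.2% of all tested genes lower. Nuclear core subunits, which carry the flavin or iron-sulfur clusters, were lower, among them Ndufs8 at -0.78, Ndufs1 at -0.63, Ndufs3 at -0.43 and Ndufv1 at -0.39 on the log2 scale. Ndufs8 (Entrez 225887), which holds a pair of iron-sulfur clusters, was at 40.1, 42.1 and 39.7 CPM in GFP-positive libraries and at 74.8, 61.4 and 73.2 CPM in GFP-negative libraries. The GFP-positive values lay close together and below all GFP-negative ones (log2 fold change -0.78, SE 0.08, edgeR adjusted p = 1.28e-04). Ndufs1 (Entrez 227197), the largest iron-sulfur subunit, was at 93.3, 90.5 and 91.4 CPM in GFP-positive libraries, against 145, 127 and 155 CPM in GFP-negative libraries, again with no overlap (-0.63, SE 0.08, adjusted p = 2.26e-04). Both kept their calls in the 9 fits that left out libraries.

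Accessory subunits of complex I surround and stabilise the core. Of the 31 tested members counted as such, 17 were lower and 14 were not called. The 17 include Ndufa4 and Ndufa4l2, which are counted here only by their names. Ndufv3 (Entrez 78330), which sits next to the flavoprotein core, was at 37.3, 40.3 and 41.5 CPM in GFP-positive libraries, against 78.6, 62.9 and 79.3 CPM in GFP-negative libraries, a log2 change of -0.89 (SE 0.10, edgeR adjusted p = 1.41e-04). All its GFP-positive libraries were lower than every GFP-negative one. Ndufc2, in the membrane arm, followed with a log2 change of -0.81, Ndufa12 with -0.58 and Ndufc1 with -0.52. The other called accessory subunits ran from -0.48 for Ndufa10 to -0.18 for Ndufa8, apart from Ndufa4 (-0.50) and the isoform Ndufa4l2 described below. Ndufa8, a twin-cysteine subunit on the outer face of the inner membrane, lost its call with the replicate block (adjusted p = 0.0521) and in 7 of the 9 fits that left out libraries (up to 0.275). It came to -0.06 (adjusted p = 0.482) once the length and GC trend was taken out with the block.

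The 14 subunits without a call were Ndufa1, Ndufa3, Ndufa5, Ndufa6, Ndufa7, Ndufb1, Ndufb2, Ndufb3, Ndufb4, Ndufb7, Ndufb10, Ndufb11, Ndufs4 and Ndufs5, with log2 fold changes between -0.29 and 0.05. With the replicate block, Ndufa1, Ndufa3, Ndufa7 and Ndufb11 also passed (adjusted p = 0.0447, 0.0169, 0.0412 and 0.0256). Ndufs4 (Entrez 17993), a late-assembling subunit whose loss causes Leigh-like disease in mice, was singled out after its values were seen. It was at 87.6, 85.6 and 87.7 CPM in GFP-positive libraries, within the GFP-negative range of 87.9, 76.2 and 88.3 CPM. Its log2 fold change was 0.05 (SE 0.07, edgeR adjusted p = 0.575). Ndufa3, Ndufa7 and Ndufb2 did not overlap between groups although none was called, where 33.0% of all tested genes lay below in this way. Ndufa7, for example, was at 31.4, 25.4 and 29.8 CPM against 33.2, 32.0 and 35.5 CPM, with a log2 change of -0.22 (SE 0.09).

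Complex II, succinate dehydrogenase, is encoded wholly in the nucleus and also works in the citric acid cycle. All 4 subunits were lower, with a median of -0.59, and each kept its call in the 9 fits that left out libraries. Sdha (Entrez 66945), the flavoprotein that binds succinate, was at 193, 193 and 202 CPM in GFP-positive libraries and 311, 266 and 337 CPM in GFP-negative libraries, a log2 change of -0.64 (SE 0.09, edgeR adjusted p = 4.04e-04). Sdhb, the iron-sulfur subunit, was at 85.5, 86.0 and 88.9 CPM against 119, 106 and 123 CPM, a log2 change of -0.42 (SE 0.07). In both, the highest GFP-positive library was below the lowest GFP-negative one.

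The membrane anchors of complex II behaved likewise. Sdhc was at 53.2, 48.0 and 58.3 CPM in GFP-positive libraries and 80.1, 75.0 and 88.4 CPM in GFP-negative libraries, a log2 change of -0.61 (SE 0.09). Sdhd (Entrez 66925) was at 35.5, 35.5 and 36.7 CPM against 54.6, 51.1 and 53.3 CPM, a log2 change of -0.56 (SE 0.06, edgeR adjusted p = 1.06e-04). Its libraries differed little within either group, and it had the smallest p of the subunits.

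Complex III, ubiquinol-cytochrome c reductase, had 8 of 9 tested subunits lower, with a median of -0.50. Uqcrc1 (Entrez 22273), a large core protein on the matrix side, was at 116, 134 and 125 CPM in GFP-positive libraries, against 207, 169 and 211 CPM in GFP-negative libraries, a log2 change of -0.65 (SE 0.09, edgeR adjusted p = 6.72e-04). Uqcrq, a small subunit near cytochrome b, was at 109, 130 and 114 CPM against 193, 162 and 190 CPM, a log2 change of -0.63 (SE 0.09, adjusted p = 5.53e-04). For both genes the GFP-positive library of number 2 was the highest of its group and the GFP-negative one of number 2 the lowest.

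Uqcr10, another small subunit, had the lowest fold change of the complex, at 43.1, 36.8 and 43.0 CPM in GFP-positive libraries, against 69.6, 53.5 and 72.2 CPM in GFP-negative libraries (log2 fold change -0.67, SE 0.12). Of the catalytic subunits, Cyc1, cytochrome c1, was at 49.2, 57.2 and 49.8 CPM against 73.7, 67.0 and 80.1 CPM (-0.50, SE 0.09), and Uqcrfs1, the Rieske iron-sulfur protein, had a log2 change of -0.50 (SE 0.07). The other called subunits were Uqcrc2, Uqcr11 and Uqcrb, at -0.51, -0.44 and -0.20, kept in 9, 4 and 2 of the 9 fits that left out libraries. Uqcrh, the hinge protein that docks cytochrome c1, missed the threshold (-0.35, adjusted p = 0.0593) and passed with the replicate block (0.00334).

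Cytochrome c was lower as well. Cycs (Entrez 13063) was at 83.1, 86.2 and 83.9 CPM in GFP-positive libraries and 133, 117 and 131 CPM in GFP-negative libraries, with no overlap (log2 fold change -0.59, SE 0.06, edgeR adjusted p = 1.09e-04).

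**Figure D2:**
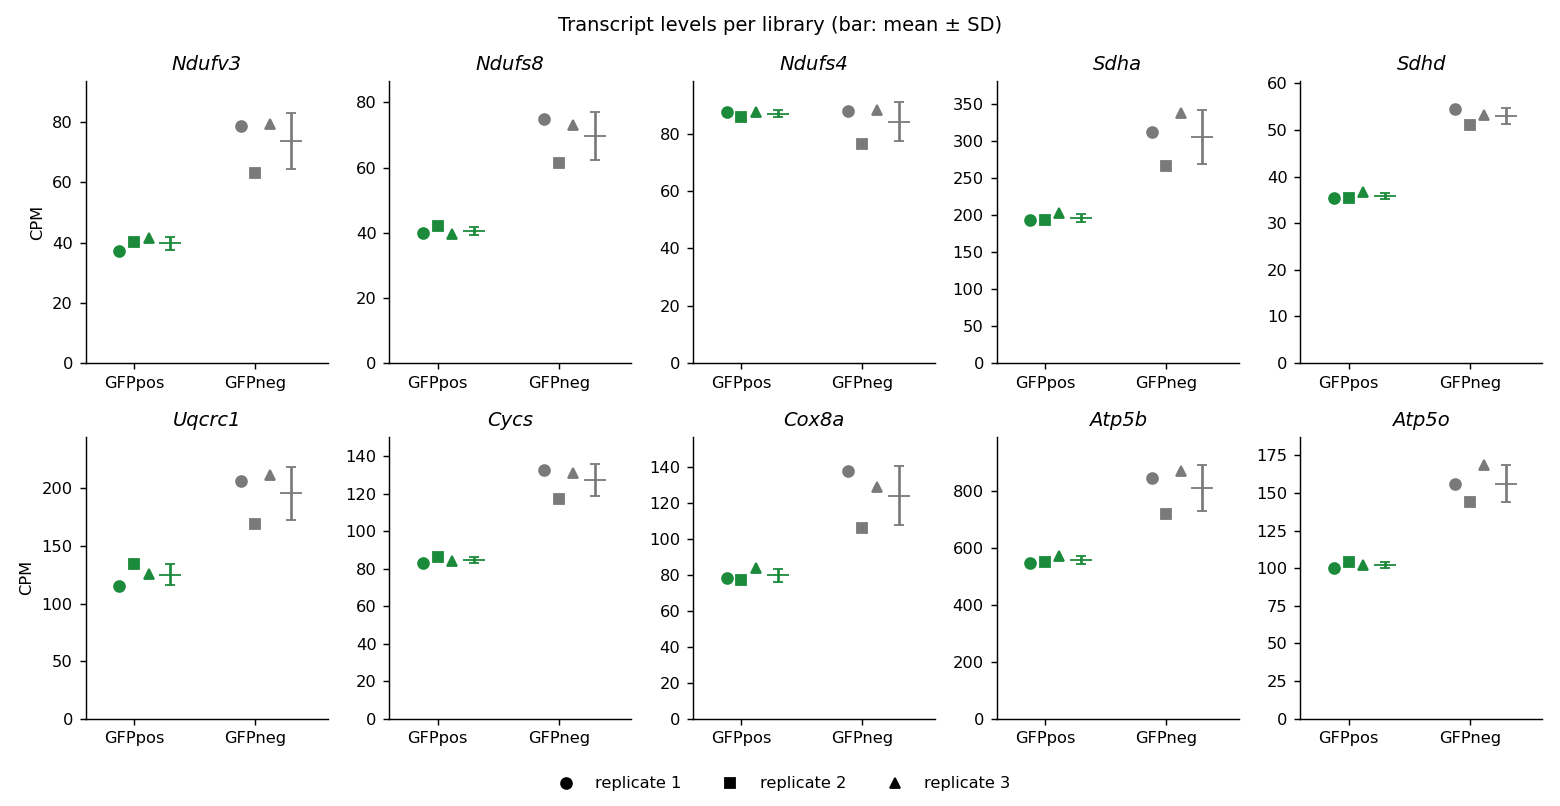
CPM per library (vertical axis, from 0) of 10 subunits in GFP-positive (green, left) and GFP-negative (grey, right) cells; symbols mark the replicate number and bars the mean ± SD (n = 3). GFP-positive libraries lie below GFP-negative ones in all but Ndufs4, whose groups overlap.

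Complex IV, cytochrome c oxidase, had 10 of 13 tested subunits lower, with a median of -0.36. Cox8a (Entrez 12868), a small membrane subunit, was at 78.0, 76.9 and 83.8 CPM in GFP-positive libraries, against 137, 106 and 129 CPM in GFP-negative libraries, a log2 change of -0.64 (SE 0.09, edgeR adjusted p = 7.10e-04). Cox6c, the member with the most counts here, was at 207, 179 and 225 CPM against 275, 235 and 285 CPM, a log2 change of -0.38 (SE 0.10, adjusted p = 0.0132). Its groups stood apart, by a margin smaller than the spread within either, and its call was lost without GFP-negative 3 and without number 1 (adjusted p up to 0.107).

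Among the other widely expressed subunits, Cox7a2 had a log2 change of -0.50, Cox5a, on the matrix side, -0.40, Cox7b -0.36, Cox6a1 -0.34, Cox7c -0.32 and Cox6b1 -0.31. Cox7b lost its call without GFP-positive 1, GFP-negative 1 or 3, or number 1 or 3 (adjusted p up to 0.151), and Cox6b1 without GFP-positive 2, GFP-negative 3 or number 3 (up to 0.128). Cox7c and Cox5a kept theirs in 7 and 8 of the 9 edgeR fits that left out libraries (adjusted p up to 0.133 and 0.059). Cox5b, a zinc-binding subunit, did not pass (-0.24, adjusted p = 0.0913), and passed with the replicate block (0.00995). Cox7a2l, also called SCAF1, which links complex III to complex IV in supercomplexes, did not pass either. It was at 107, 94.1 and 101 CPM in GFP-positive libraries, overlapping 118, 103 and 111 CPM in GFP-negative libraries, with a log2 change of -0.14 (SE 0.07, adjusted p = 0.133) that became 0.03 once the length and GC trend was taken out.

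Some subunits have isoforms restricted to certain tissues, and 3 of these had the largest fold changes of the 82 tested members. Cox6b2 (Entrez 333182), the testis isoform of Cox6b1, was at 0.654, 0.508 and 0.843 CPM in GFP-positive libraries and 3.52, 1.66 and 5.35 CPM in GFP-negative libraries, a log2 change of -2.39 (SE 0.44, edgeR adjusted p = 0.00217). Cox6a2 (Entrez 12862), the heart and muscle isoform of Cox6a1, was at 1.69, 1.63 and 1.25 CPM against 4.70, 3.06 and 2.40 CPM (-1.15, SE 0.29, adjusted p = 0.00957; 0.0618 without the libraries of number 1). Ndufa4l2 (Entrez 407790), a hypoxia-induced relative of Ndufa4, was at 0.381, 0.309 and 0.490 CPM against 0.637, 1.15 and 0.745 CPM, a log2 change of -1.10 (SE 0.37, adjusted p = 0.0325). The groups did not overlap in any of the 3, but all were scarce, and Ndufa4l2 lost its call with the replicate block (adjusted p = 0.0514), with DESeq2 (0.0624), without a low-count filter, with the length and GC trend taken out together with the block (0.0534) and in each fit that left out libraries apart from those without GFP-positive 3 or GFP-negative 1. Of all tested genes, 12.3% were lower by more than 1 on the log2 scale.

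Against their widely expressed partners, the balance within a library was compared for 8 pairs, where 3 libraries against 3 allow no two-sided exact permutation p below 0.1. The log2 ratio of Cox6b2 to Cox6b1 was -6.95, -7.02 and -6.48 in GFP-positive libraries, against -4.69, -5.68 and -4.20 in GFP-negative libraries, a difference of -1.96 without overlap (exact permutation p = 0.1; 0.16 adjusted over the 8 pairs). That of Cox6a2 to Cox6a1 differed by -0.77, also without overlap and with the same p. For Ndufa4l2 to Ndufa4 the groups overlapped, with a difference of -0.58 (exact permutation p = 0.2). Ndufa4, now placed in complex IV by structural work, was itself at 30.0, 25.9 and 31.5 CPM against 41.1, 37.0 and 45.7 CPM.

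Cox7a1, the muscle isoform of Cox7a2, was scarce in both fractions, at 0.272, 0.464 and 0.490 CPM against 0.152, 0.414 and 0.778 CPM, and its log2 fold change of -0.12 (SE 0.56) turned positive in 5 alternatives. The ratio of Cox7a2l to Cox7a2 was higher in GFP-positive libraries by 0.36, at 1.89, 1.89 and 1.83 against 1.61, 1.51 and 1.40, without overlap (exact permutation p = 0.1; 0.16 adjusted).

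**Figure D3:**
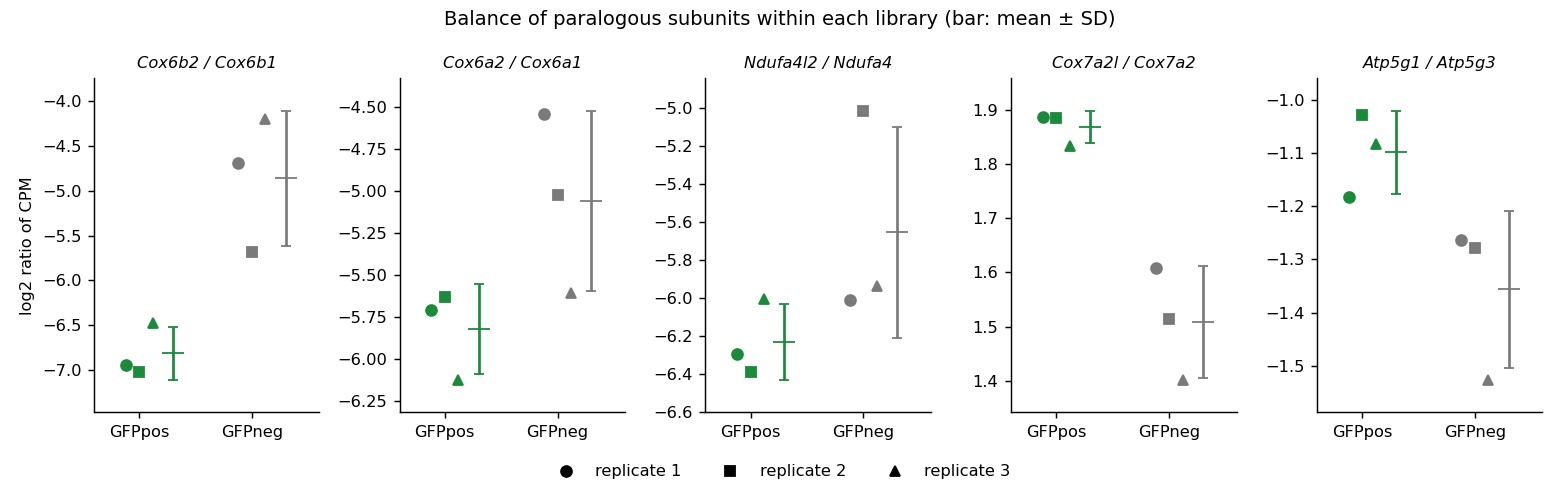
Log2 ratio of the CPM of paired subunits within each library (vertical axis, scaled per panel), GFP-positive in green on the left and GFP-negative in grey on the right, bars mean ± SD (n = 3). The Cox6b2, Cox6a2, Cox7a2l and Atp5g1 ratios do not overlap between fractions, and the Ndufa4l2 ratio does.

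The 5 untested members were near the detection limit. Cox8b, a heart and muscle isoform, had 2 counts over the GFP-positive libraries and 23 over the GFP-negative ones. Cox7b2 had 1 and 13 counts, 10 of the 13 in the GFP-negative library of number 2. Ndufb4c and Ndufa11b, near copies of Ndufb4 and Ndufa11, had 12 and 4 counts in GFP-positive and 7 and 2 in GFP-negative libraries, and reads could be shared with their parents. Cox8c, a testis isoform, had 0 counts among 118976378 in GFP-positive and 95086175 in GFP-negative libraries, which allows up to 0.0252 and 0.0316 CPM for counting error only.

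Complex V, the ATP synthase, had 15 of 17 subunits lower, with a median of -0.40. All 5 subunits of the F1 head and central stalk, where ATP is made, were lower. Atp5b (Entrez 11947), the catalytic beta subunit with the most counts of all members, was at 547, 550 and 574 CPM in GFP-positive libraries, against 846, 721 and 872 CPM in GFP-negative libraries, a log2 change of -0.55 (SE 0.08, edgeR adjusted p = 6.19e-04). Its partner Atp5a1, the alpha subunit, had a log2 change of -0.27 (SE 0.07, adjusted p = 0.0157). Atp5c1, Atp5d and Atp5e, of the rotating stalk, were at -0.47, -0.47 and -0.32. Atp5a1 and Atp5e kept their calls in 4 and 3 of the 9 fits that left out libraries.

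The peripheral stalk, which holds the head still, was lower in 4 of 4 subunits. Atp5o (Entrez 28080), which joins the stalk to the head, was at 100.2, 104 and 102 CPM in GFP-positive libraries, against 156, 144 and 169 CPM in GFP-negative libraries (-0.61, SE 0.06, edgeR adjusted p = 1.21e-04). Atp5pb, Atp5j and Atp5h were at -0.31, -0.31 and -0.28. Atp5j and Atp5h kept their calls in 6 and 3 of the 9 fits that left out libraries. Once the length and GC trend was taken out with the block, they came to -0.14 and -0.12 and did not pass (adjusted p = 0.0858 and 0.204).

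The c subunit, which forms the rotating ring in the membrane, is made as the same mature protein from 3 genes with different import sequences, and all 3 were lower. Atp5g3 was at 60.6, 53.3 and 60.6 CPM in GFP-positive libraries, against 98.8, 81.1 and 114 CPM in GFP-negative libraries, a log2 change of -0.75 (SE 0.12, edgeR adjusted p = 0.00101), the lowest of complex V. Atp5g1 was at 26.7, 26.1 and 28.6 CPM against 41.2, 33.4 and 39.7 CPM (-0.49, SE 0.09). Atp5g2 was at 39.7, 29.3 and 36.5 CPM against 50.6, 43.6 and 44.5 CPM (-0.40, SE 0.12), and its call went without GFP-negative 1 and without number 3 (adjusted p up to 0.0788). The log2 ratios of Atp5g1 and of Atp5g2 to Atp5g3 were higher in GFP-positive libraries by 0.26 and 0.34, each without overlap (exact permutation p = 0.1), while that of Atp5g1 to Atp5g2 overlapped.

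Of the small membrane subunits, Atp5mpl, Atp5j2 and Atp5md were lower (-0.48, -0.28 and -0.22), and their calls held in 8, 5 and 3 of the 9 fits that left out libraries. Atp5j2 came to -0.12 (adjusted p = 0.195) once the length and GC trend was taken out with the block. Atp5k (-0.45, adjusted p = 0.0817) and Atp5l (-0.20, 0.0507) did not pass. Atp5k, which takes part in joining the synthase into dimers, passed with the replicate block (0.00159).

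Summed over a complex, the GFP-positive libraries lay below the GFP-negative ones in each case. Complex I summed to 2080, 2001 and 2099 CPM against 2783, 2350 and 2827 CPM, complex II to 368, 362 and 386 CPM against 565, 498 and 602 CPM, and complex III to 681, 694 and 707 CPM against 1025, 869 and 1061 CPM. Complex IV summed to 853, 757 and 861 CPM against 1099, 949 and 1126 CPM, and complex V to 2305, 2262 and 2360 CPM against 3152, 2757 and 3306 CPM. Of the 5 complexes, the ratio of the means was smallest for complex II (0.670) and largest for complex IV (0.779); differences between complexes were not tested. Over all members the sums were 6369, 6162 and 6497 CPM against 8757, 7540 and 9053 CPM, so the GFP-negative library of number 2 stood nearest to the GFP-positive ones.

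**Figure D4:**
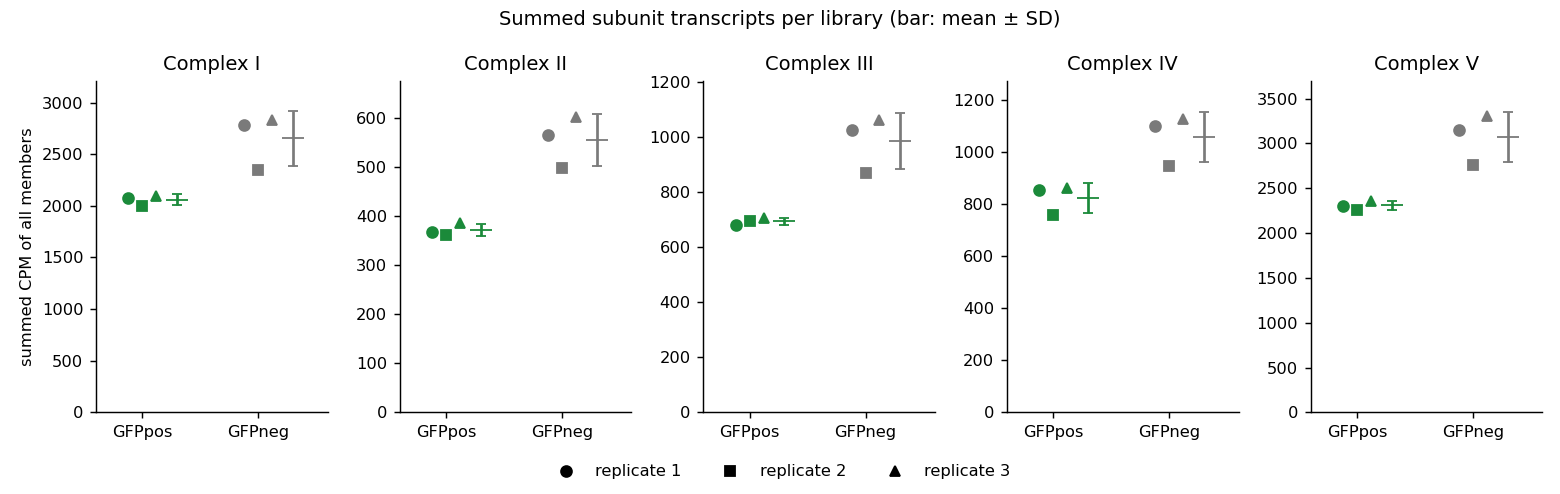
Summed CPM of all members of each complex per library (vertical axis, from 0), GFP-positive in green on the left and GFP-negative in grey on the right, bars mean ± SD (n = 3). Each GFP-positive library lies below each GFP-negative one, and the GFP-negative replicate 2 is the lowest of its group throughout.

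Levels of different subunits were compared per length, as TPM from the median length of the protein-coding transcripts in GENCODE M21. The median subunit stood at 136 TPM in GFP-positive and 170 TPM in GFP-negative cells for complex I, at 140 and 190 TPM for complex II, at 216 and 284 TPM for complex III, at 163 and 190 TPM for complex IV and at 234 and 271 TPM for complex V. Cox6c was the highest of complex IV at 666 and 827 TPM, and Atp5b the highest of complex V at 577 and 803 TPM. Cycs was lower, at 53.6 and 77.0 TPM. The lengths are medians over annotated transcripts, such as 533 bases for Uqcrc1 and 3123 bases for Cycs. They need not be those of the transcripts expressed here, so the order of subunits by TPM is uncertain.

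Some subunits fall outside the name rule. Of these, the isoforms Cox4i2 and Cyct were untested, with 4 and 0 counts in GFP-positive libraries and 2 and 0 counts in GFP-negative libraries. Cox4i1, the regulatory subunit 4 of complex IV, was at 172, 171 and 172 CPM in GFP-positive libraries, against 221, 204 and 235 CPM in GFP-negative libraries (log2 fold change -0.36, SE 0.06, edgeR adjusted p = 0.00133). Ndufab1, the acyl carrier protein of complex I, was at 92.2, 95.3 and 98.4 CPM against 124, 102 and 125 CPM (-0.30, SE 0.08, adjusted p = 0.0159). Of the 9 fits that left out libraries, that call held only in those without GFP-positive 3, GFP-negative 2 or number 2. The 13 subunits encoded by mitochondrial DNA were not analysed here.

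Factors that assemble the complexes were mostly uncalled, and more of them were lower than higher. For complex I, 5 of 15 assembly factors were lower and 1 higher, with a median of -0.23. Foxred1, an oxidoreductase, and Ndufaf8 had log2 fold changes of -0.47 and -0.56, and Tmem186 had 0.23 (adjusted p = 0.0326). Of the 9 fits that left out libraries, only those without GFP-positive 2 or number 2 kept the call of Tmem186. For complex IV, 7 of 18 tested factors were lower and 0 higher (median -0.18), with Taco1, an activator of Cox1 translation, at -0.59 and Cox17, a copper chaperone, at -0.40. Complexes II, III and V had 2 of 4, 2 of 6 and 1 of 4 factors lower and 0 higher, led by Sdhaf4 (-0.63) and Sdhaf2 (-0.24), Lyrm7 (-0.59) and Uqcc1 (-0.26), and Fmc1 (-0.64), with Tmem70 uncalled at -0.06 (0.07 once the length and GC trend was taken out). Without number 3, none of these 5 calls held, and Uqcc1 also missed (adjusted p = 0.112) once the trend was taken out with the block. These shares were read against the same 29.2% of all tested genes lower and 26.1% higher. The difference from the subunits was not tested.

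Regulators of mitochondrial content differed in both directions: 5 of 15 were higher and 2 lower, where 26.1% of all tested genes were higher and 29.2% lower. Ppargc1a, which encodes the coactivator PGC-1alpha, was at 8.45, 10.4 and 8.87 CPM in GFP-positive libraries and 83.4, 67.1 and 95.9 CPM in GFP-negative libraries, a log2 change of -3.15 (SE 0.15, edgeR adjusted p = 3.03e-06). The other lower gene was the matrix protease Lonp1 (-0.24), which lost its call without GFP-positive 1, GFP-negative 1 or 3, or number 1 or 3. Polg, the mitochondrial DNA polymerase, was at 407, 379 and 380 CPM against 207, 210 and 209 CPM (0.90, SE 0.05, adjusted p = 7.01e-06). The other higher members, named after their values were seen, were the helicase Twnk (0.58), the PGC-1-related coactivator Pprc1 (0.41), Tfb2m (0.29) and the RNA polymerase Polrmt (0.27). Nrf1, Gabpa and Yy1, which encode the factors whose motifs were searched, had log2 fold changes of 0.12, 0.02 and 0.03, none past the threshold.

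Of 7 carriers and uncoupling proteins around ATP synthesis, 4 could be tested, and all 4 were lower, where 29.2% of all tested genes were. The others were scarce: Ucp1 had 27 counts over the GFP-positive libraries, against 12 over the GFP-negative ones, Ucp3 had 15 and 2, and Slc25a31 had 0 and 7. Ucp1 and Ucp3 were higher in each GFP-positive library than in any GFP-negative one, with no test, as were 31.3% of all tested genes. Slc25a5, an ADP/ATP carrier of dividing cells, was at 329, 312 and 350 CPM in GFP-positive libraries, against 638, 539 and 660 CPM in GFP-negative libraries (-0.89, SE 0.09, edgeR adjusted p = 7.57e-05). Slc25a3, the phosphate carrier, and Slc25a4, another ADP/ATP carrier, were at -0.50 and -0.35. Ucp2, an inner membrane carrier of the uncoupling family, was at 1.14, 1.02 and 0.952 CPM against 5.85, 5.64 and 8.17 CPM (-2.66, SE 0.21, adjusted p = 3.03e-05).

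Of 12 outer membrane and import genes, 5 were lower and 3 higher, against the same 29.2% and 26.1% of all genes. The channel genes Vdac1, Vdac2 and Vdac3 were at -0.71, -0.48 and -0.35, and the import pores Tomm40 and Timm23 at -0.38 and -0.30. Timm23 came to -0.14 (adjusted p = 0.0654) once the length and GC trend was taken out with the block. Timm50, a receptor of the same translocase, was at 63.4, 67.9 and 70.9 CPM against 36.1, 37.5 and 36.2 CPM (0.88, SE 0.06, edgeR adjusted p = 1.75e-05). The receptors Tomm20 and Tomm70a were at 0.24 and 0.17, and kept their calls in 8 and 3 of the 9 fits that left out libraries. Neither call held without number 3, and Tomm70a came to -0.02 once the length and GC trend was taken out. Of 11 genes of ubiquinone synthesis, 5 were lower and 1 higher (29.2% and 26.1% of all genes): Coq7, a hydroxylase, was at -0.79, and the atypical kinase Coq8a was higher, at 12.7, 12.5 and 13.5 CPM against 5.82, 4.33 and 6.45 CPM (1.22, SE 0.15, adjusted p = 2.86e-04).

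**Figure D5:**
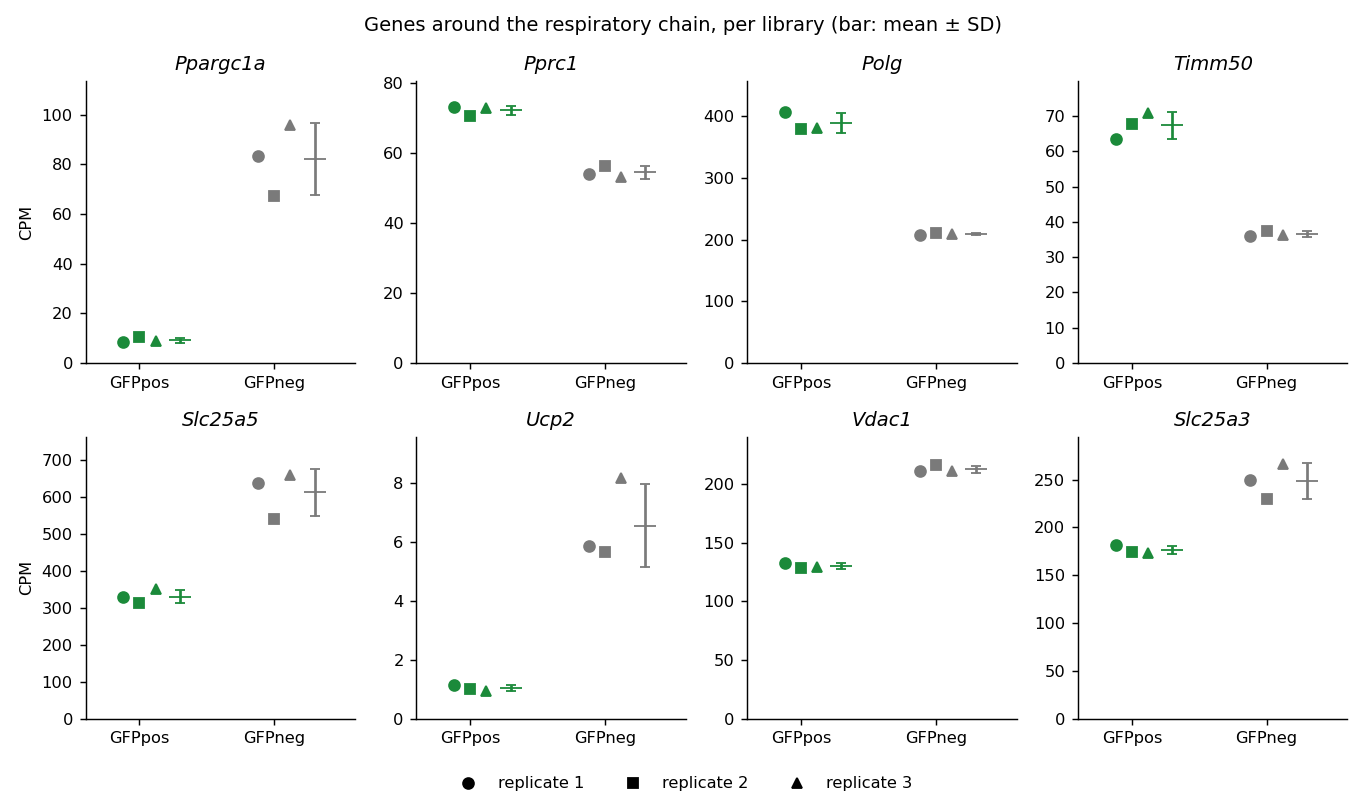
CPM per library (vertical axis, from 0) of 8 genes that regulate or serve the respiratory chain, GFP-positive in green on the left and GFP-negative in grey on the right, bars mean ± SD (n = 3). Ppargc1a, Slc25a5, Ucp2, Vdac1 and Slc25a3 are lower in all GFP-positive libraries, and Pprc1, Polg and Timm50 are higher in all of them.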

How the data were processed

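RNA of 6 sorted fractions was measured by bulk sequencing with the SMART-Seq Stranded kit, per the labels' protocols. Per the submitters' processing notes, TopHat2 2.1.1 and featureCounts 2.0.0 were among the tools, and mm39 was the build. The deposited table holds raw read counts per gene, with no normalization. No source used here gives the annotation, the strand setting or the treatment of reads with several matches, so subunits with near-identical copies and overlapping antisense genes are uncertain.

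Groups follow the titles (3 libraries each). The numbers 314, 315 and 316 in the titles, replicates 1, 2 and 3 here, were taken to pair the libraries. After subtracting group means, libraries sharing a number correlated at 0.218, 0.355 and 0.159, and those with different numbers at -0.306 to 0.128. No library was a repeat of another: within groups, chi-square over its degrees of freedom was 9.83 to 34.2. Totals of 31067850 to 45207335 counts make counting error small for all but the scarcest members; PCR copies are included, so limits cover counting error only.

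The whole table was fitted with edgeR 4.0.16 (R 4.3.3): TMM scaling, filterByExpr, quasi-likelihood F test, Benjamini-Hochberg adjustment over 14554 genes, no block, adjusted p under 0.05. Each SE was taken as |log2 fold change| over the root of F. Alternatives were RLE and upper-quartile scaling, no filter, a CPM of 1 in 3 libraries, DESeq2 1.42.0, limma-voom 3.58.1, the replicate block, removal of length and GC trends (splines with 5 degrees of freedom, GENCODE M21, 98.3% of tested genes), and leaving out each library or number. The fits were tested on simulated data. Members, lists and the rule for named genes (smallest p, most counts and largest change per complex, paralogue sets, and the 2 smallest p in each other list) were chosen with earlier results of these data known. A gene that this rule names is not reported here.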

Additional observations from a re-analysis of the deposited data

How the results depend on the processing

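Across 18 alternatives, 33 of the 62 lower subunits kept their call in each one, and 0 subunits were called higher in any. With the replicate block, 67 were lower, and it changed the calls of 9 subunits, each given with its gene or in the count above. With the length and GC trend removed, the median of all members was -0.29 with the replicate block and -0.30 without it, that of complex I -0.23 and -0.23 and that of complex II -0.45 and -0.45. In these 2 fits, complex I assembly factors had 3 and 3 higher, complex III assembly factors 1 and 1 lower and 1 and 1 higher, and complex IV assembly factors 4 and 4 lower. Log2 fold changes turned to 0.028 and 0.028 for Cox7a2l, 0.071 and 0.065 for Tmem70, and -0.022 and -0.023 for Tomm70a, while Cox7a1 came to 0.051 with the block and 0.11 with limma-voom. Without a low-count filter, complex I assembly factors had 0 higher, complex II assembly factors 1 lower (also 1 with DESeq2) and ubiquinone genes 3 lower.

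Leaving out libraries, 37 to 74 members were lower, 12 to 31 of complex I, 6 to 12 of complex IV and 8 to 17 of complex V, where 2951 to 4468 of all genes were lower and 2450 to 4169 higher. Medians ran from -0.46 to -0.31 for all members, -0.43 to -0.27 for complex I, -0.45 to -0.28 for complex IV and -0.45 to -0.30 for complex V. Assembly factors lower numbered 2 to 6, 0 to 3, 0 to 3, 2 to 7 and 0 to 1 for complexes I to V, with 0 to 1 higher for complex I. Regulators had 1 to 3 lower and 3 to 6 higher, import genes 1 to 3 higher and ubiquinone genes 2 to 6 lower. Cox7a1 lay between -0.53 and 0.55 and Tmem70 between -0.16 and 0.027. The causes were not tested. Depth limits most the scarce isoforms, at a few CPM or less.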
